A study of Ovis aries with 18 samples.

Results

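A set of 120 genes stood higher in each of 7 long photoperiod (LP) animals than in each of 8 short photoperiod (SP) animals in the sheep pars tuberalis (PT). The set came out of 12015 genes whose mean level reached 5 CPM (counts scaled to a common library total) and 25197 genes listed. The animals were neutered male Scottish blackface sheep held for 4 weeks (SP4) or 16 weeks (SP16) on SP, or for 4 weeks (LP4) or 22 weeks (LP22) on LP, and RNA of the PT was sequenced from 4 animals per group. The set was defined on 15 of the 16 animals: the lowest CPM among 3 LP4 and 4 LP22 animals had to exceed the highest CPM among 4 SP4 and 4 SP16 animals. The only library of the animal left out, LP4 animal 3, does not share the pattern for most of the set. This library stood apart from most others. Its median correlation with the other libraries across genes was 0.449, against 0.922 to 0.951 for the 16 libraries used. In this library 33 of the 120 genes (27.5%) lay above every SP animal and 79 (65.8%) below, against 41.9% and 46.2% of the 12015 genes. On the 15 animals, 122 genes met the condition, and 2 of them belong to 6 gene IDs left out by definition. These 122 genes were 1.02% of the genes above the level minimum, and the condition in the opposite direction, every SP animal above every LP animal, was met by 58 genes, or 0.483%. Because these values chose the members, the difference between LP and SP is described here and not tested.

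The PT is the part of the pituitary that wraps the stalk below the hypothalamus, and it reads day length through the nightly melatonin signal. On long days its thyrotroph cells switch on thyrotrophin, with EYA3 as a co-activator, and this hormone acts on neighbouring ependymal cells of the hypothalamus to raise local thyroid hormone. On short days the same cells store secretory granules rich in chromogranin A. The files list genes by Ensembl sheep identifiers without names, and 0 of the 25197 identifiers occurred in the reference gene table used here. Members are therefore given by identifier or by their rank in the gap between photoperiods, from rank 1 for the widest gap, and neither the role of a member nor the marker genes of the tissue were checked. The tissue was sequenced whole, so more cells of a type and more RNA per cell cannot be told apart.

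Gene counts per animal ran from 1746861 to 5850281. A pair of LP4 libraries stood apart from the others and were not used to choose members: the only library from animal 3, and for animal 2 the first of its libraries. Their median correlations with the other libraries across genes were 0.449 and 0.706, against 0.922 to 0.951 for the other 16 libraries. Their shares of reads in no counted feature were 47.2% and 68.8%, against 78.6% to 84.5% for the other 16. LP4 animal 2 entered by its repeat library alone, whose 10 most abundant genes held 59.2% of the counts and whose TMM scaling factor was 0.633. The factors of the other 14 animals lay between 0.965 and 1.08. This animal bears on the size of the set, since only 27 of the 120 members met the condition on CPM without a scaling factor. With that animal left out, unscaled CPM gave 163 genes, 107 of them members.

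Members were mostly well expressed. Their mean level over the 15 animals ran from 5.02 to 520.1 CPM with a median of 61.2 CPM, against a median of 20.9 CPM over all 12015 genes. Of the 120 members, 40 had a mean of at least 100 CPM (33.3%, against 9.65% of all genes above the minimum). The mean LP level exceeded the mean SP level by a median of 1.55-fold, with quartiles of 1.35 and 2.08, and 33 members were at least 2-fold higher. Among all 12015 genes, 1.17% were 2-fold higher by the same measure. The 55 members under 50 CPM had a median fold of 1.82 and the 65 above it 1.39. These levels and folds come from the values that chose the members, and a gene that varies more between animals meets the condition only with a larger fold, so nothing is read from the difference. The 58 genes higher in every SP animal differed by a similar median of 1.65-fold, and 17 of them by at least 2-fold.

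The gap between photoperiods was narrow for most members. The ratio of the lowest LP value to the highest SP value had a median of 1.09 and exceeded 1.5 in 8 members and 2 in 4 members. For 81 members the gap was smaller than 1 standard error of counting for the 2 libraries that bound it, and for 22 members it was at least 2 standard errors. Which genes fall just inside or outside the set is therefore within counting error. Just inside, the member of rank 120 had a lowest LP value of 189.1 CPM and a highest SP value of 188.8 CPM, a ratio of 1.001. Just outside, the nearest gene had 237.2 and 237.4 CPM. At the level minimum, the weakest member had a mean of 5.02 CPM. The strongest gene under the minimum that met the condition between photoperiods had a mean of 4.79 CPM.

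**Figure D1:**
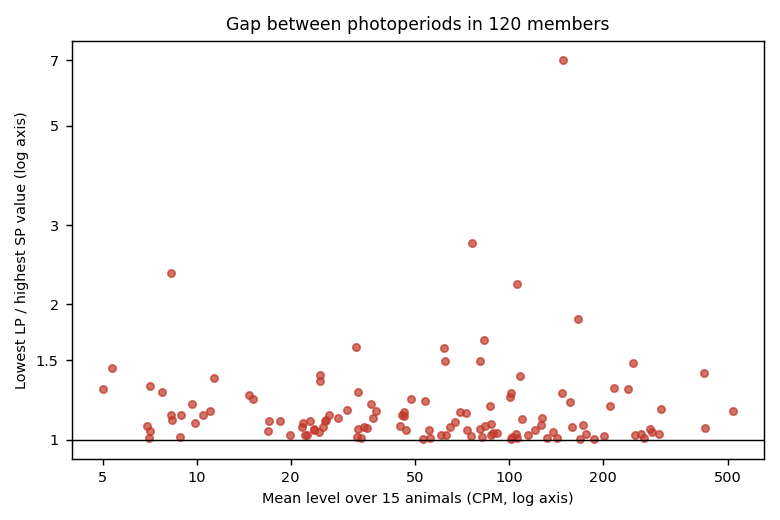
Ratio of the lowest LP to the highest SP value (log axis) against the mean CPM over 15 animals (log axis), 1 point per member; the line marks a ratio of 1. Most of the 120 points lie just above 1 at every level, 8 exceed 1.5, and the rank 1 member stands alone at 7.02.

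The widest gap belonged to ENSOARG00000020127, which was low in most SP animals and abundant in the LP animals used to choose members. It stood at 2.67, 3.30, 1.39 and 11.3 CPM in SP4 animals 1 to 4 and at 7.70, 2.43, 2.77 and 21.0 CPM in SP16 animals 1 to 4. In LP it reached 538, 277 and 328 CPM in LP4 animals 1, 2 and 4, and 320, 277, 147 and 289 CPM in LP22 animals 1 to 4. The highest SP animal was thus 7.02 times below the lowest LP animal, and the mean LP level was 47.3-fold the mean SP level. Its SP values rest on 3 to 41 counts per animal, while its LP values rest on 432 to 1317 counts. The group means were 4.66 ± 4.49 CPM in SP4, 8.47 ± 8.69 in SP16 (SD, n = 4 each), 381 ± 138 in LP4 (SD, n = 3) and 258 ± 76.1 in LP22 (SD, n = 4). Within each photoperiod the 2 groups overlapped.

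The second, ENSOARG00000018875, was expressed on both photoperiods with less spread between animals. It stood at 31.7, 26.0, 40.3 and 21.7 CPM in SP4 and at 29.0, 20.9, 19.1 and 30.7 CPM in SP16. The LP animals used to choose members all lay at 110.2 CPM or more. They stood at 134, 133 and 118 CPM in LP4 and at 133, 170, 110.2 and 120.5 CPM in LP22. Its mean LP level was 4.79-fold the mean SP level, with 4.29-fold between the 4-week groups and 5.36-fold between the prolonged groups. The member of rank 3 was weak, with a mean of 8.27 CPM and as few as 1 count in an SP animal. It stood at 0.463 to 2.47 CPM in SP4, 2.91 to 4.61 CPM in SP16, 15.95 to 17.97 CPM in LP4 and 10.8 to 14.7 CPM in LP22, so no pair of the 4 groups overlapped. It is 1 of 5 members with fewer than 3 counts in some animal, and its folds are uncertain in size.

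Further members differed in how they stood in each group. The member of rank 6 was at 33.9 to 44.9 CPM in SP4 and 16.3 to 37.9 CPM in SP16, and at 74.7 to 152 CPM in LP4 and 135 to 199 CPM in LP22. That of rank 9 was at 9.09 to 16.2 CPM in SP4, at 36.9 to 52.7 CPM in SP16, at 79.2 to 195 CPM in LP4 and at 78.8 to 195 CPM in LP22. Its SP groups did not overlap, whereas its LP groups covered the same range. The member of rank 11, at a mean of 249 CPM, also had SP16 wholly above SP4 and LP groups that overlapped, with 87.4 to 109.7 CPM in SP4, 127 to 185 CPM in SP16, 273 to 415 CPM in LP4 and 377 to 471 CPM in LP22. That of rank 24 had the opposite order within SP, at 117 to 135 CPM in SP4 and 72.3 to 93.7 CPM in SP16, and lay at 193 to 199 CPM in LP4 and 172 to 219 CPM in LP22. The member of rank 23 was weak, at 2.71 to 5.77 CPM in SP4, 0.971 to 3.59 CPM in SP16, 7.35 to 9.23 CPM in LP4 and 14.4 to 19.4 CPM in LP22, so its LP groups did not overlap and its SP groups did.

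**Figure D2:**
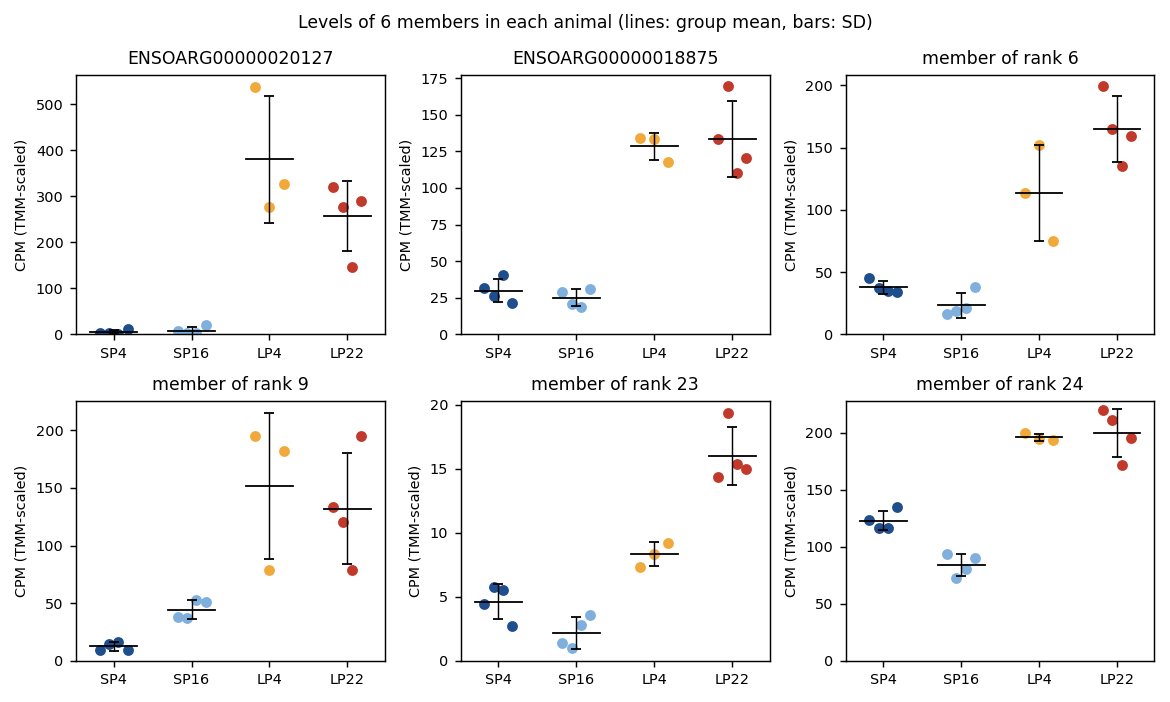
Level in CPM of 6 members in each of the 15 animals, with group means (lines) and SD (bars); n = 4 in SP4, SP16 and LP22 and n = 3 in LP4. Each LP point lies above each SP point, as the choice of members requires, while the SP groups do not overlap for ranks 9 and 24, nor the LP groups for rank 23.

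To compare animals over the whole set, each member's log2 CPM was placed on a scale where 0 is its SP mean and 1 its LP mean. The median position of the 120 members ran from −0.102 to 0.0751 over the 8 SP animals and from 0.806 to 1.24 over the 7 LP animals. LP22 held both ends of the LP range: animal 2 had the highest median position and the highest LP value for 48 members, and animal 3 the lowest median position and the lowest LP value for 36 members. LP4 animals 1, 2 and 4 lay between them at 1.01, 0.993 and 0.883. On SP, the lowest value fell in SP16 animal 2 for 28 members, and the highest value was spread over all 8 animals, with 8 to 22 members each. How often each animal held an extreme value over all genes was not taken. LP22 animal 2 had the lowest total of gene counts, 1746861.

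**Figure D3:**
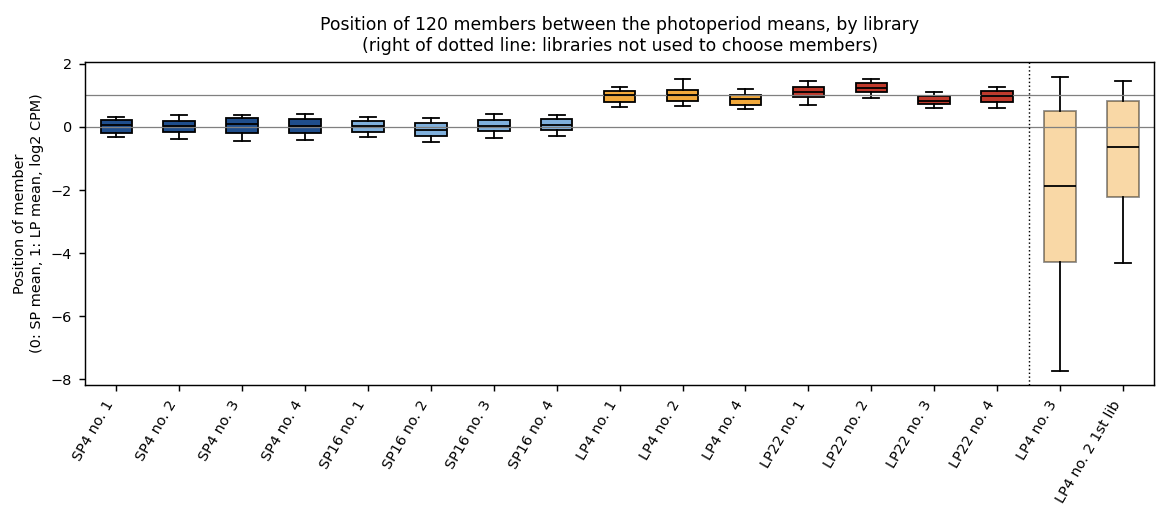
Position of the 120 members in each library between the SP mean (0) and the LP mean (1) on the log2 CPM scale; boxes span the quartiles, whiskers the 10th to 90th percentile. The 15 animals fall into 2 bands by construction, and the 2 libraries to the right, which were not used to choose members, spread from far below 0 to above 1.

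Levels in the pair of LP4 libraries that the choice of members did not use can be set beside it. In LP4 animal 3, 33 of the 120 members (27.5%) lay above every SP animal, 8 lay within the SP range and 79 (65.8%) lay below every SP animal. Over all 12015 genes, 41.9% lay above and 46.2% below every SP animal in this library. In the first library of LP4 animal 2, 41 members (34.2%) lay above every SP animal and 64 (53.3%) below, against 33.6% and 39.2% of all genes. The share of members above the SP animals was thus lower than that of all genes in the former library and close to it in the latter, and the share below them was higher than that of all genes in both. Both libraries depart from the SP range in most genes and in both directions, and the part of this departure in the members' levels was not tested. ENSOARG00000020127 had 1.20 CPM (5 counts) in LP4 animal 3, below every SP animal, and 9.08 CPM (10 counts) in the first library of LP4 animal 2, within the SP range, while the repeat library of animal 2 gave 277 CPM. ENSOARG00000018875 stood at 24.3 CPM in LP4 animal 3, within the SP range, and at 40.9 CPM in the first library of animal 2, just above it. The member of rank 9 was far above every SP animal in both, at 894 and 213 CPM. With LP4 animal 3 kept in the condition, 31 of the 120 members met it.

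The effect of duration within each photoperiod was tested over 13446 genes with edgeR's quasi-likelihood test and Benjamini-Hochberg adjustment. These tests are not independent of the choice of members: it used the same 15 animals, it required LP above SP at both durations, and it favoured little spread within groups. The shares of members below, for duration and for the interaction, are therefore descriptions beside those of all genes. Prolonged SP against 4 weeks of SP gave no adjusted p under 0.05 among members (0 of 120), against 0.00744% of all genes. The median log2 fold change of SP16 against SP4 was 0.00 over the members, with 60 positive (50%, against 49.9% of all genes) and 60 negative. By unadjusted p under 0.05, 5 members were higher and 12 lower in SP16, or 4.17% and 10% of members, against 5.70% and 5.03% of all genes. SP16 lay wholly above SP4 for 4 members and wholly below it for 9, or 3.33% and 7.50%, against 3.41% and 3.31% of all genes above the minimum. The lowest p belonged to rank 9 (log2 fold change of 1.90, SE 0.34, adjusted p = 0.0793), then rank 24 (−0.55, SE 0.10, adjusted p = 0.107) and rank 11 (0.67, SE 0.14, adjusted p = 0.130). DESeq2 called these 3 members, with adjusted p of 0.00145, 0.00342 and 0.0150. The same 3 were called by edgeR when LP4 animal 2, which is not part of the comparison, was left out of the fit. How many of all genes were called under these settings was not taken, so these calls have no share of all genes beside them.

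Prolonged LP against 4 weeks of LP likewise gave no call among members with edgeR (0 of 120, against 0.0297% of all genes) or with DESeq2 (0). By unadjusted p under 0.05, 14 members were higher and 3 lower in LP22, or 11.7% and 2.50% of members, against 4.28% and 4.43% of all genes. The median log2 fold change of LP22 against LP4 was 0.05 over members and 0.00 over all genes. It was positive for 75 members (62.5%) and negative for 45, against 49.9% positive among all genes. By group means LP22 was higher than LP4 for 76 members. A single animal, LP22 animal 2, held the highest LP value for 48 members, and its part in these counts was not tested. LP22 lay wholly above LP4 for 4 members and wholly below it for 2, or 3.33% and 1.67%, against 3.80% and 3.62% of all genes above the minimum. The lowest p was that of rank 23, with a log2 fold change of 0.93 (SE 0.26, edgeR adjusted p = 0.260). The set as a whole was brighter than other genes, as given above, and the part of this in its shares of low p was not tested.

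Whether the photoperiod difference itself changed with exposure was addressed by the interaction, (LP22 − SP16) − (LP4 − SP4), whose late times were not matched at 22 and 16 weeks. The median fold was 1.54 for LP4 over SP4 and 1.59 for LP22 over SP16. By ratios of group means, 51 members had the larger fold after 4 weeks and 69 after prolonged exposure. By the fitted interaction, 66 members (55%) were positive and 54 negative, against 49.9% positive among all genes. No member passed the interaction test with edgeR (0 of 120, against 0.0892% of all genes), and 16 had a positive and 2 a negative interaction at an unadjusted p under 0.05, or 13.3% and 1.67% of members, against 5.15% and 5.31% of all genes. The lowest adjusted p, 0.0778, was shared by ranks 9 and 36. For rank 9 the fold was 12.2 after 4 weeks and 2.97 after prolonged exposure (interaction −2.10 on the log2 scale, SE 0.43), with SP levels that differed more than LP levels. For rank 36, with a mean of 306 CPM, it was 1.43 and 2.59 (interaction 0.86, SE 0.18). DESeq2 called both of these, with adjusted p of 0.0242 for rank 9 and 0.00377 for rank 36. With LP4 animal 2 left out, edgeR called 3 members: ranks 6, 9 and 36. The share of all genes called was not taken with DESeq2 or without this animal, so these calls stand without it.

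**Figure D4:**
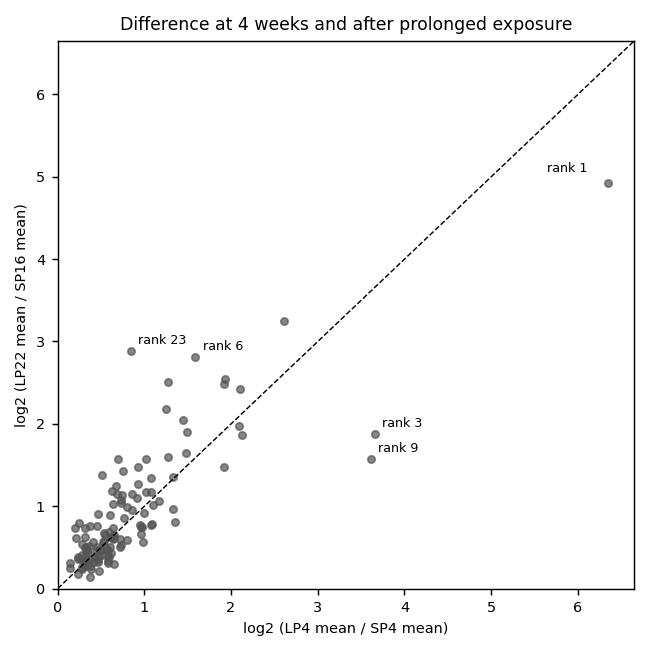
Log2 ratio of group means after prolonged exposure (LP22 over SP16) against that after 4 weeks (LP4 over SP4), 1 point per member; the dashed line marks equal values. Of the 120 members, 69 lie above the line and 51 below, rank 1 has 4.93 against 6.35, and ranks 3 and 9 lie farther below the line than rank 1.

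Members also varied together within groups. After group means were removed from log2 CPM, the mean pairwise Pearson correlation between members over the 15 animals was 0.122, against 0.00023 between all genes above the minimum and 0.0683 between the 58 genes higher in every SP animal. Without LP4 animal 2 the value for members was 0.130. All points share the same libraries and scaling, so this is a description of these animals. Scaling equalizes levels over all genes, so the value between all genes tends to be low in any case. Members were also brighter than other genes, and no genes of like level were compared. The part of level in these correlations and in the spread below was not tested. Spread within groups was smaller for members than for all genes above the minimum, as the choice of genes without overlap favours: the median coefficient of variation was 9.82% against 17.2% in LP4, 12.6% against 16.0% in LP22, 11.9% against 15.1% in SP4 and 11.1% against 15.3% in SP16.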

How the data were processed

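The authors aligned reads with Bowtie to sheep build Oar_v3.1 and counted them per gene with HTSeq, as the submitters' processing notes and the methods name them; versions, strand and feature settings are not given in the sources used here. The deposited files hold unnormalized read counts for each gene, 1 file per library (18 libraries, 16 animals). In the 16 libraries used, 78.6% to 84.5% of reads lay in no counted feature. This is a share of the reads in genes, in no feature or ambiguous between genes. The reads in no feature are 1 of 5 summary lines left out of library sizes. The libraries of SP4 animal 1 were summed. Genes were kept by filterByExpr (minimum count 10, minimum total 15), scaled by TMM and tested with edgeR 4.0.16 in R 4.3.3 (glmQLFit, glmQLFTest), 2-sided, all 4 groups in 1 fit; DESeq2 1.42.0 was an alternative. SE came from the F statistic. CPM are TMM-scaled, and log2 CPM used a prior count of 2. The test was checked on simulated data. Figures used matplotlib 3.10.9.

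Members, lists and settings were chosen with earlier results of these data known. The naming rule listed members by gap, level and p; because IDs carry no names, the 2 with the widest gap are named and others go by rank. Lists of gene symbols fixed at the start (pathways, cell type markers) and a promoter motif search were not used here, for the same reason, and no sequence is given. The labels number the samples within each group, and each number was taken as a separate animal. They give no date or batch. Over the animal totals, 5 CPM of unscaled depth is 8.73 to 29.3 counts, and counting errors cover counting noise only.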

Additional observations from a re-analysis of the deposited data

Results flagged for a closer look

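In 30 groups of 4 animals examined (9 members described above and the median position of the set, each in SP4, SP16 and LP22), 1 had an animal far from the other 3, and chance gives about 1 in 20. It was the member of rank 11 in SP4, where animal 1 stood at 109.7 CPM and the other animals at 87.4 to 90.7 CPM. Animal 1 is the only SP4 animal with summed libraries.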

How the results depend on the processing

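Of 11 other settings for choosing the set, 9 gave counts within 1.5 times its 120 genes, judged by count and not by membership. A minimum of 1 or 10 CPM gave 124 and 106 genes, which by construction contain the set or lie within it. Among these 9, the fewest members were kept with both libraries of LP4 animal 2 summed (93, in a set of 106). The set shrank to 28 genes on CPM without a scaling factor and to 31 with LP4 animal 3 kept. Leaving out each animal in turn gave 124 to 157 genes. Fewer animals relax the condition, apart from changes in scaling and filtering, so larger counts were built in. Unscaled CPM without LP4 animal 2, an alternative added after the data were seen, gave 163. The members called in SP16 against SP4 numbered 3 with DESeq2, 2 with no filter on low counts and 1 with only the 2 groups fitted, and 0 to 3 with any single animal left out. The interaction called 2 with DESeq2, 2 with no filter and 0 to 3 without an animal, the highest without LP4 animal 2. LP22 against LP4 gave 0 under every alternative run, and 0 without any single animal. The counts of members at an unadjusted p under 0.05 moved more. Over all settings they ran from 8 to 21 for SP16 against SP4, 11 to 18 for LP22 against LP4 and 10 to 25 for the interaction. With 16 animals and both libraries of LP4 animal 2 summed they were 8, 11 and 10. The shares of all genes, called or at an unadjusted p under 0.05, were not taken for each setting. In LP4 animal 3, 21 members lay above every SP animal without a scaling factor, in place of 33.

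Animals share the numbers 1 to 4 across groups, by label only. With group means removed, animals sharing a number correlated at −0.163 to 0.172 over 21 pairs (mean −0.0102), and 3 pairs exceeded 0.1, so the numbers were not taken as pairs. The replicate block gave 0 members in each of the 3 tests. Depth limits the weakest members, 5 of which had fewer than 3 counts in some animal.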
